A study of Rattus norvegicus with 6 samples.

Results

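Small leucine-rich proteoglycans are secreted matrix proteins that coat collagen fibrils. Their curved leucine-rich repeat domain binds collagen and sets how fibrils grow and pack, and several members also hold growth factors such as TGF-beta or signal through receptors on immune cells. In joints they are made by fibroblasts, tendon cells, chondrocytes and bone cells, so their transcripts in a synovial dissection reflect both the synovium and the connective tissue attached to it. The family was taken as 10 genes by their names on the array: Aspn, Dcn and Bgn of class I, Fmod, Lum, Prelp, Kera and Omd of class II, and Ogn and Epyc of class III. All 10 were present, with 11 probes of 41012, since Ogn had 2 probes and each other gene had 1. A probe was tested if 3 or more of the 6 arrays showed it well above background, which 25772 probes did, and among them were 10 family probes of 9 genes.

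The RNA came from ankle synovial tissue of male rats aged 8 weeks. All 6 samples had adjuvant arthritis, a joint disease of rats brought on by Freund's complete adjuvant, of which 0.1 ml was injected into the peritoneum daily over 18 days. The arthritis group (3 arrays) received saline for 14 days, and the triptolide group (3 arrays) received triptolide, a plant diterpenoid that inhibits transcription, at 0.4 mg/kg for 14 days. No group without adjuvant was analysed here, and the labels do not say whether replicates were separate animals, so the spread between arrays may be partly technical.

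Each array was a 1-colour Agilent oligonucleotide array. Between 59.6% and 65.1% of 43379 non-control spots were well above background, none was saturated, and precision is limited by the number of arrays. The headers give 2 scan dates, and arrays that share a scan date are called a slide here. Slide 1 held all 3 arthritis arrays and triptolide 1, and slide 2 held triptolide 2 and 3, so slide and treatment are largely confounded. All 9 synovial fibroblast markers on the array were tested, including Prg4 and Pdpn of the lining and Thy1 of the sublining. The dissections differed in other tissue. Summed signal of skeletal muscle markers ranged from 3.49 to 3555 times the array's 75th percentile in arthritis and from 3.29 to 44.3 in triptolide, with arthritis 2 at the top. By mean log2 level triptolide 2 was the highest array for nerve, smooth muscle and cartilage markers. In bulk tissue, fewer cells of a type and less RNA per cell cannot be told apart.

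The probe of Aspn is shown because the clearest separation of the groups rests on it, and the probes of Dcn, Lum and Kera because they lie on the repeat that names the family. They are written as deposited, 5′ to 3′, with positions on rat build rn4. Capitals mark the 33 bases that, in the probe's open reading frame, fit the leucine-rich repeat consensus of 11 residues.
Aspn: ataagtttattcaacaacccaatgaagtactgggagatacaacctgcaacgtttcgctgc
Dcn: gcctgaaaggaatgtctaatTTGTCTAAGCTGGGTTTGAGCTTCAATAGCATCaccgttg
Lum: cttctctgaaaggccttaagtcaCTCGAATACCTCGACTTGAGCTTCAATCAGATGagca
Kera: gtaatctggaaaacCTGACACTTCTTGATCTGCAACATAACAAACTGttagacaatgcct

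The Aspn probe maps to chr17:21035836-21035895 on the minus strand. Those of Lum and Kera map to chr7:35086409-35086468 and chr7:35123955-35124014, both on the plus strand. The Dcn probe is placed at chr7:35037331-35041132 on the plus strand, a span of 3802 bases for a probe of 60, so it is split between exons. The consensus was found in 3 of 11 family probes (27.3%) and in 218 of 41012 probes overall (0.532%). On the complementary strand it was found in 0 family probes and 0.493% of all probes. Only a complete match within a probe was counted, so a probe without one may still lie on a repeat. Dcn and Lum gave the closest pair of family probes, with 30 of 57 aligned bases identical, against a median of 21 matches over 55 pairs. A further probe described only as a decorin transcript fragment was not well above background on any array and is not counted as Dcn.

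The genes lie in clusters, as the probe positions show. Ogn, Omd and Aspn follow each other on chromosome 17 within 48.7 kb. Dcn, Lum, Kera and Epyc follow each other on chromosome 7 within 161 kb. Prelp and Fmod are 131 kb apart on chromosome 13, and Bgn stands alone on the X chromosome. In the RefSeq annotation of assembly GRCr8 the members of each cluster are also direct neighbours among protein-coding genes.

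Of the class I genes, Aspn was lower on every triptolide array than on every arthritis array, while Dcn and Bgn overlapped. Aspn encodes asporin, which has a run of aspartates at its start, binds collagen and calcium, and restrains TGF-beta. Levels are given as log2 of intensity relative to the array's own 75th percentile, so 0 is that percentile. Aspn stood at 2.69, 2.56 and 2.93 in arthritis 1 to 3 and at 2.04, 1.68 and 2.09 in triptolide 1 to 3. The gap between the lowest arthritis and the highest triptolide array was 0.47, wider than the SD of either group. The means were 2.73 ± 0.19 (SD, n = 3) and 1.94 ± 0.22 (SD, n = 3), a log2 difference of -0.79 (SE 0.19), which is 1.73-fold lower with triptolide.

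By limma across all tested probes this difference had an unadjusted p of 0.00491 and an adjusted p of 0.994, so it did not pass the threshold of 0.05. Of all tested probes, 3.23% had an unadjusted p under 0.05 (1.23% with triptolide lower and 2.00% with triptolide higher) and 0% passed after Benjamini-Hochberg adjustment, the lowest adjusted p being 0.344. Of the 833 probes under 0.05 before adjustment 317 were lower with triptolide, against 387 of 796 with scaling to the median. Groups failed to overlap for 8.64% of tested probes, 3.87% with triptolide lower and 4.77% with triptolide higher. With slide as a block, where triptolide 1 alone stands for the treated side, the difference of Aspn was -0.69 (SE 0.28, unadjusted p = 0.0567), and within slide 1 it was also -0.69. Scaling matters to the separation. Before it, the processed intensities were 1813, 1728 and 2442 in arthritis and 1110, 1097 and 1908 in triptolide, where triptolide 3, the brightest array as a whole, lay above arthritis 1 and 2.

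Dcn encodes decorin, an abundant collagen I binding proteoglycan that also sequesters TGF-beta. It stood at 7.55, 7.63 and 8.24 in arthritis and 7.66, 7.57 and 7.79 in triptolide. Arthritis 3 was the highest array, and the other 5 lay within a narrow band. The difference was -0.13 (SE 0.22, unadjusted p = 0.567). Bgn encodes biglycan, whose soluble form activates the receptors Tlr2 and Tlr4. It stood at 8.65, 7.97 and 8.70 in arthritis and 8.03, 8.55 and 8.11 in triptolide, so the second array of each group broke the pattern of the other two. Its difference was -0.21 (SE 0.26, unadjusted p = 0.458), and -0.60 with both second arrays left out.

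**Figure D1:**
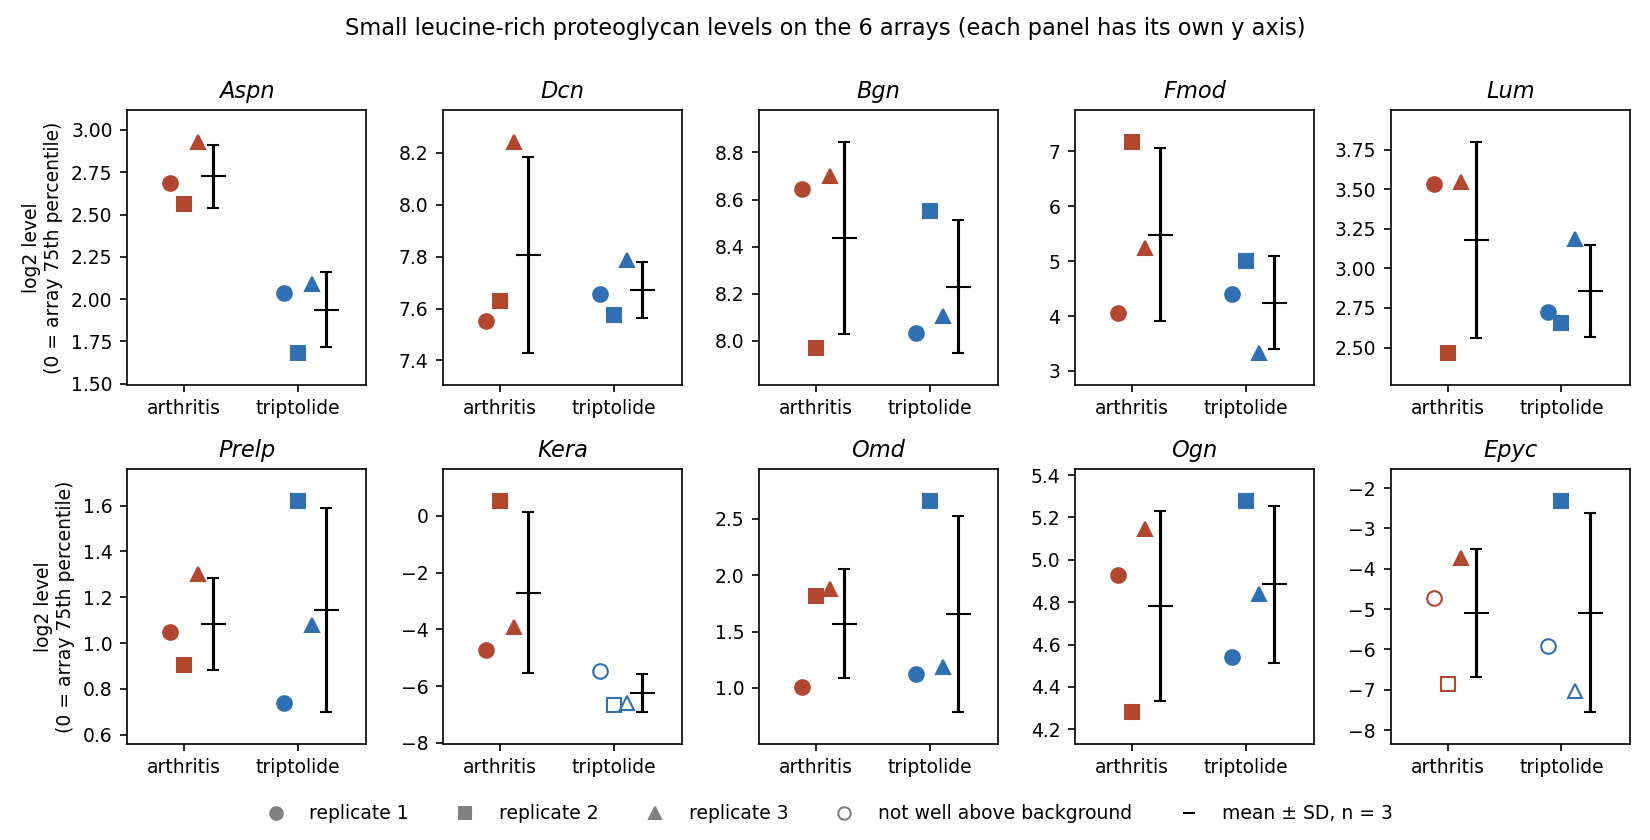
Log2 level of each of the 10 genes (brightest probe) on the 3 arthritis and 3 triptolide arrays, where 0 is the array's 75th percentile, with a separate y axis for each gene. Symbols show the replicate number, open symbols an array not well above background, and bars the mean ± SD. The groups separate for Aspn. Kera does so only through triptolide signals not well above background, and for the other 8 genes the groups overlap.

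Among class II genes, Kera and Fmod had the widest range and both were highest on arthritis 2. Kera encodes keratocan, a keratan sulfate proteoglycan best known from the cornea that is also made by tendon cells. It stood at -4.74, 0.52 and -3.91 in arthritis, all well above background, and at -5.48, -6.66 and -6.60 in triptolide, where it was below that level throughout. Arthritis 2 was far above every other array, and arthritis 1 and 3 were near the detection limit. The lowest signal that counted as well above background was -4.34 on triptolide 1 and -4.43 on triptolide 2. Kera on arthritis 1 was below both. With triptolide signals raised to that lowest signal of their array, Kera was on average 3.78-fold lower with triptolide. Without arthritis 2 it was 1.24-fold lower. A signal not well above background can exceed that lowest signal, so neither value is a strict bound. The fitted difference, -3.54 (SE 1.34, unadjusted p = 0.0371, adjusted p = 0.994), uses signals below background and is not a measure of the fold. Kera passed the filter through its 3 arthritis arrays alone, so its separation follows in part from that filter.

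Fmod encodes fibromodulin, which binds collagen I and steers fibril assembly in tendon. It stood at 4.05, 7.17 and 5.23 in arthritis and at 4.39, 5 and 3.33 in triptolide. Arthritis 2 was highest, but arthritis 1 was lower than triptolide 1 and 2. The difference was -1.24 (SE 0.83, unadjusted p = 0.185). Leaving out arthritis 2 gave -0.40, and leaving out arthritis 1 gave -1.96. Leaving out triptolide 3 gave -0.79.

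Of the 4 tested tendon and enthesis markers 3 (Tnmd, Thbs4 and Fibin) were, like Kera and Fmod, highest on arthritis 2. Of 6 listed genes 5 were on the array and 4 were tested, the other being Comp, while Mkx was not well above background on any array. Their mean lay 1.54 above its 6-array average in arthritis 2, 0.39 above in arthritis 3, at -0.22 in arthritis 1, and between -0.64 and -0.51 in triptolide. Their summed signal was 52.9 to 126 times the 75th percentile in arthritis and 44.8 to 52.3 in triptolide. Neither the mean nor the summed signal of this list overlapped between the groups, the sum by a narrow margin. The levels of Aspn did not overlap either. Thbs4, a tendon thrombospondin, was the 1 gene of the 4 tested without overlap, as were 3.87% of all tested probes with triptolide lower. Its difference was -1.46 (SE 0.50). Tnmd, the tendon membrane protein tenomodulin, differed by -1.52 (SE 0.695). Comp was highest on arthritis 3 and differed by 0.04 (SE 0.22), and Fmod on triptolide 2 lay 0.14 above its average. Chad, a class IV relative found in cartilage and tendon, stood at 0.35 in arthritis 2 and between -5.34 and -2.58 elsewhere, with triptolide 2 not well above background. Skeletal muscle markers were also highest on arthritis 2. With their mean as a covariate the differences were -3.35 for the fitted value of Kera and -1.16 for Fmod. That mean averaged 0.26 in arthritis and -0.26 in triptolide, with single arrays from -3.88 to 8.41. Being nearly balanced between groups, it could change a group difference only a little. The part of tendon tissue in these differences, or in that of Aspn, was not tested.

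Lum encodes lumican, a corneal and connective tissue keratan sulfate proteoglycan that also presents bacterial lipopolysaccharide to immune cells. It stood at 3.53, 2.47 and 3.54 in arthritis and 2.72, 2.66 and 3.19 in triptolide. Arthritis 2 was the lowest of the 6 arrays, and the other arthritis arrays were the highest pair. The difference was -0.32 (SE 0.34, unadjusted p = 0.375), and -0.68 without arthritis 2. Synovial fibroblast markers were also low on arthritis 2, with a mean at -0.58 in arthritis 2 and -0.69 in triptolide 2, and at 0.38, 0.58, 0.06 and 0.25 in arthritis 1, arthritis 3, triptolide 1 and triptolide 3. Their summed signal was 145.5 to 359 times the 75th percentile in arthritis and 145.9 to 306 in triptolide, and 5 of 9 had lower values with triptolide.

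Prelp encodes a basic proteoglycan that links collagen to heparan sulfate in basement membranes. It stood at 1.05, 0.91 and 1.30 in arthritis and 0.74, 1.62 and 1.08 in triptolide. The triptolide arrays held both the lowest and the highest value, and the difference was 0.06 (SE 0.26). Omd encodes osteomodulin, a keratan sulfate proteoglycan of bone that binds hydroxyapatite. It stood at 1.01, 1.81 and 1.88 in arthritis and 1.12, 2.66 and 1.18 in triptolide, with a difference of 0.09 (SE 0.48). Triptolide 2 was the highest array for both genes.

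Triptolide 2 was also the highest array for the class III gene Ogn, which encodes osteoglycin, a small proteoglycan of bone, vessel wall and fibrous tissue. The brighter probe stood at 4.93, 4.28 and 5.14 in arthritis and 4.54, 5.28 and 4.84 in triptolide. Its difference was 0.10 (SE 0.30), and that of the second probe 0.26 (SE 0.43), so both probes left the groups overlapping. With triptolide 2 left out the differences were -0.09 for Ogn, -0.41 for Omd and -0.18 for Prelp. On that array cartilage markers lay 1.15, smooth muscle and pericyte markers 1.95 and nerve markers 2.30 above their 6-array averages. The summed signals of these 3 lists were 2.93 to 7.72, 27.1 to 131 and 56.5 to 93.1 in arthritis and 2.40 to 8.57, 19.8 to 67.2 and 56.1 to 256 in triptolide. The 131 of the smooth muscle and pericyte list rests largely on Des on arthritis 2, the array highest for skeletal muscle markers. Des stood at 6.80 there and at 4.15 on triptolide 2. Acan and Hapln1, defining cartilage markers, were not well above background on any array. The part of these tissues in the values of triptolide 2 was not tested.

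Epyc encodes epiphycan, a proteoglycan of growth plate cartilage. It was well above background on 2 arrays, arthritis 3 at -3.73 and triptolide 2 at -2.32, and was not tested. The other 4 arrays lay between -7.04 and -4.72, so no fold is given.

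**Figure D2:**
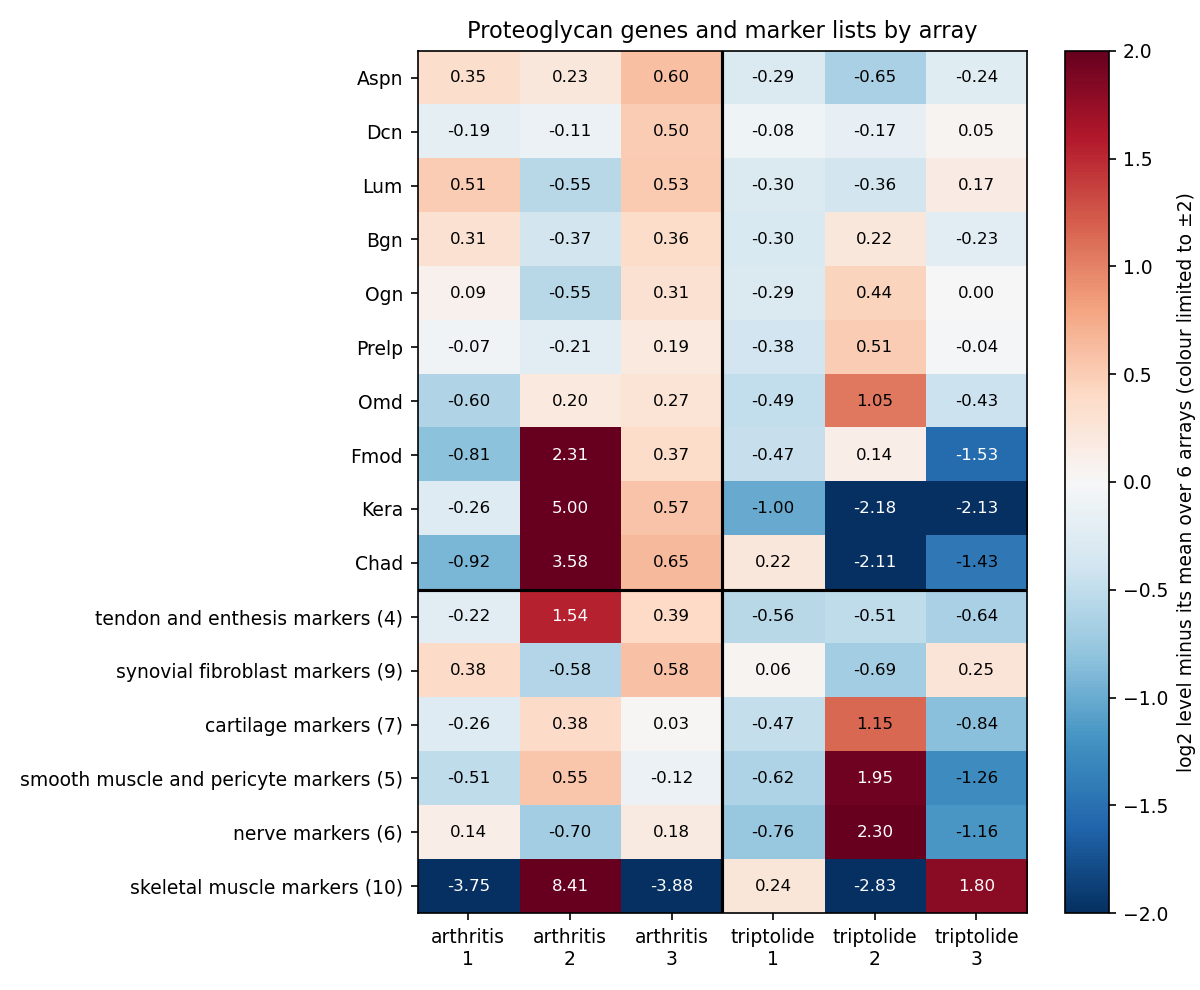
Log2 level minus its mean over the 6 arrays for the 9 tested genes, Chad, and the means of 6 marker lists (number of tested genes in brackets), by array. Kera, Fmod, Chad, tendon markers and skeletal muscle markers are highest on arthritis 2, where Lum, Bgn and Ogn are lowest, and Omd, Prelp and Ogn are highest on triptolide 2, where Aspn is lowest.

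Within the family the direction was mixed. Of the 9 tested genes 6 had lower and 3 higher values with triptolide, with a median log2 difference of -0.21 against 0.02 over all tested probes. Without Kera the median was -0.17 over 8 genes, and -0.31 to 0.0033 with 1 array left out. The highest of these values was without arthritis 3. Of all tested probes 46.1% had a difference below 0. Aspn was 1 of the 2 genes with an unadjusted p under 0.05 and without overlap, where 3.23% and 8.64% of all tested probes met these criteria. The other was Kera, which entered through its arthritis arrays and does not count as support. By limma 0 of 9 passed after adjustment. The median of the 9 genes was -0.58 with both second arrays left out, and -0.44 with slide as a block, and in both settings each of them had a lower value with triptolide. It was -0.05 with quantile normalization, -0.081 with normexp and -0.048 with both. With 1 array left out it was -0.40 without arthritis 2, -0.077 without arthritis 3, -0.13 without triptolide 1 and -0.37 without triptolide 2. The 3 genes of the chromosome 17 cluster did not share a direction, with Aspn at -0.79 beside Omd at 0.09 and Ogn at 0.10.

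Aspn was set against each other tested member within the same array, which removes any scaling between arrays. The level of Aspn relative to Dcn differed between groups by -0.65, relative to Bgn by -0.58, relative to Ogn by -0.89 and relative to Prelp by -0.85, with no overlap between the groups in these 4 contrasts. Relative to Lum it differed by -0.46, relative to Omd by -0.88 and relative to Fmod by 0.45, all with overlap. The contrast with Kera is not given, since Kera was below background on the triptolide arrays. With 3 arrays a group an exact permutation test, two-sided, can reach 0.1 at the lowest, and these 4 contrasts without overlap reached it (0.16 after Benjamini-Hochberg adjustment over 8 contrasts, that with Kera counted). This test therefore could not pass 0.05 for any contrast. All contrasts share the Aspn levels that separate the groups on these arrays, so they are not independent of that separation or of each other.

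**Figure D3:**
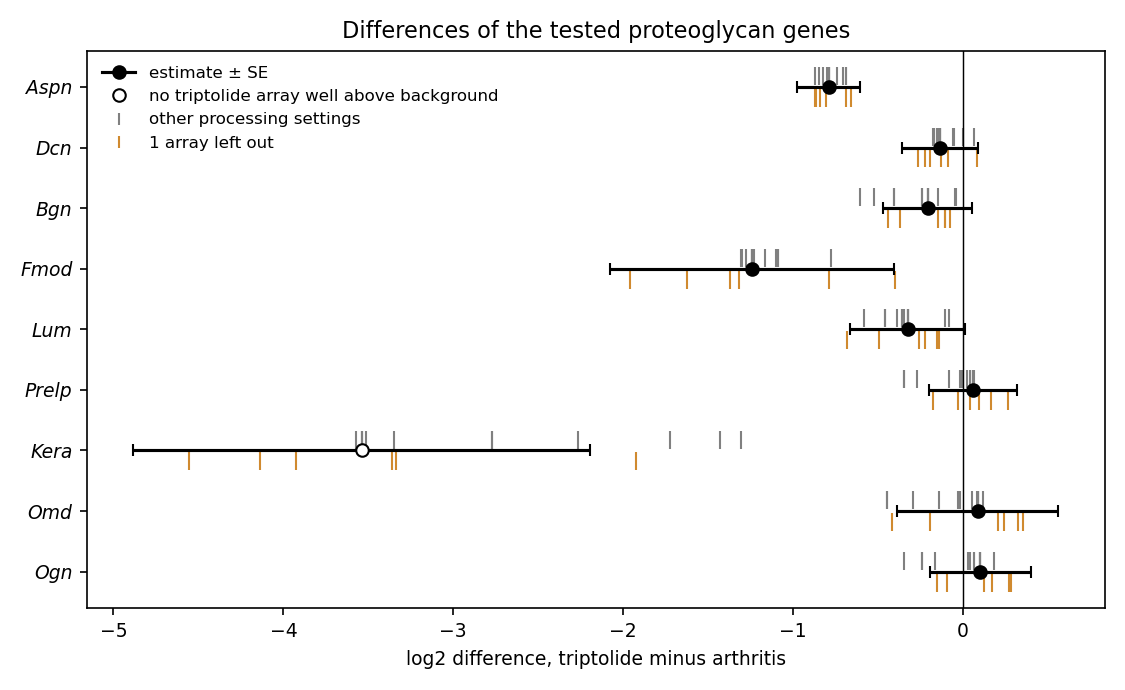
Log2 difference, triptolide minus arthritis, of the 9 tested genes with its SE (points and bars), and the same difference under other processing settings (grey) and with 1 array left out (orange). Aspn keeps between -0.87 and -0.66 in all of them, while Dcn, Prelp, Omd and Ogn cross 0.

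The genes outside the family whose pattern over the 6 arrays was most like that of Aspn were found by the root mean square distance between centred log2 levels, among 11736 genes. They were Tmem79 at 0.111, Lmx1b at 0.119, Slc2a5 at 0.148, Cfap20dc at 0.168, Medag at 0.172 and Rpl29-ps23 at 0.177. The nearest family members lay further away, Dcn at 0.361 and Lum at 0.386. Lmx1b, a limb patterning homeodomain factor, had a fitted difference of -0.64 (SE 0.18), with triptolide 2 not well above background. Slc2a5, a fructose transporter, differed by -0.91 (SE 0.21), and Medag, named for its role in adipocyte development, by -0.62 (SE 0.19). Tmem79 and Cfap20dc had no triptolide array well above background. They passed the filter through their arthritis arrays alone, so their separation follows in part from that filter. With triptolide signals raised to at least the lowest that counted as well above background, they were 1.49-fold and 1.45-fold lower. These values are not strict bounds. The distances of these 3 genes include background signal, and their order is not exact. Since likeness was measured on the arrays that separate Aspn by group, the low values of these genes with triptolide follow from the choice.

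Of the other genes of the family's wider group, 6 of 9 were on the array and 4 were tested, 2 with lower and 2 with higher values. None had an unadjusted p under 0.05, where 3.23% of all tested probes did. Chad had a fitted difference of -2.21 (SE 1.19), which includes a triptolide 2 signal not well above background. Optc, the vitreous proteoglycan opticin, differed by -0.45 (SE 0.30), Podnl1 by 0.31 (SE 0.51) and Tsku by 0.01 (SE 0.24). The median of -0.22 became -0.38 without arthritis 1 and -0.043 without arthritis 3. Nyx and Nepn were not well above background on any array.

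The collagens that these proteoglycans bind had lower values for 10 of 11 tested genes, where 46.1% of all tested probes had a difference below 0. Their median log2 difference was -0.21 beside 0.02 over all tested probes. By mean log2 level triptolide 2 was the highest array for this list, 0.35 above its 6-array average. Arthritis 1, 2 and 3 lay at 0.30, 0.08 and 0.22, and triptolide 1 and 3 at -0.39 and -0.56. By limma 0 passed after adjustment. The 1 gene of 11 with an unadjusted p under 0.05, where 3.23% of all tested probes had one, was Col5a2, a chain of the collagen that starts fibrils, at 5.90, 5.26 and 5.74 in arthritis and 5.02, 5.05 and 5.22 in triptolide. Its groups did not overlap, as for Col1a1 at -0.20 (SE 0.15), where the gap was only 0.0073. That makes 2 of 11 lower without overlap, as were 3.87% of all tested probes. Col5a2 differed by -0.54 (SE 0.21), while its other 2 probes differed by -0.48 (SE 0.25) and -0.44 (SE 0.20). Col11a1 and Col12a1 differed by -1.66 (SE 0.83) and -0.84 (SE 0.40), with overlap. On the second probe of Col11a1 the difference was -1.47 (SE 0.83), and on that of Col12a1 -1.08 (SE 0.52). The median of the list was -0.61 with slide as a block, -0.59 with both second arrays left out, -0.48 without arthritis 2, -0.42 without triptolide 2 and -0.39 with the mean of all probes of a gene.

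Genes that build the sulfated chains of decorin, biglycan and the keratan sulfate members were spread about 0. Of 30 listed genes 23 were tested, 10 with lower and 13 with higher values and a median of 0.11. That median turned to -0.11 without arthritis 2, -0.062 with array weights and -0.015 with slide as a block. No gene of this list had an unadjusted p under 0.05, where 3.23% of all tested probes did. Xylt1, which starts the chain on the core protein, differed by -0.32 (SE 0.22). The sulfate donor synthase Papss1 differed by 0.35 (SE 0.23) and the sulfate transporter Slc26a2 by 0.43 (SE 0.29).

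Signalling partners had 18 tested genes, 5 with lower and 13 with higher values and a median of 0.18. Of these 18 genes 1 had an unadjusted p under 0.05, as did 3.23% of all tested probes. That gene was Tgfbr2, the ligand-binding receptor of TGF-beta. It stood between -1.27 and -0.985 in arthritis and between -0.78 and -0.27 in triptolide, higher on every triptolide array. The difference of Tgfbr2 was 0.49 (SE 0.20, unadjusted p = 0.0450, adjusted p = 0.994). Igf1r also had no overlap, with a difference of 0.11 (SE 0.13), so 2 of 18 genes were higher without overlap, as were 4.77% of all tested probes. The median was 0.098 without arthritis 2, 0.28 without arthritis 3 and 0.078 with slide as a block. Tgfb1, the ligand that asporin and decorin bind, differed by 0.10 (SE 0.26), and the biglycan receptors Tlr2 and Tlr4 by 0.41 (SE 0.56) and 0.14 (SE 0.30). Itga2 and Egfr differed by -0.44 (SE 0.26) and -0.35 (SE 0.27).

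Proteases that cut these proteoglycans had 13 tested genes, 9 with lower and 4 with higher values and a median of -0.14. None of them had an unadjusted p under 0.05, where 3.23% of all tested probes did. Mmp9, a gelatinase, was the 1 gene of these 13 without overlap, higher with triptolide by 0.59 (SE 0.30), where 4.77% of all tested probes were higher without overlap. Htra1, a secreted serine protease, differed by 0.28 (SE 0.27). Adamts4, an aggrecanase, was well above background on arthritis 1, arthritis 3 and triptolide 2 alone, so its fitted -0.44 (SE 0.41) includes background signal. The median of the list was -0.35 without arthritis 2, and turned to 0.0052 without arthritis 1 and 0.0083 without arthritis 3.

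**Figure D4:**
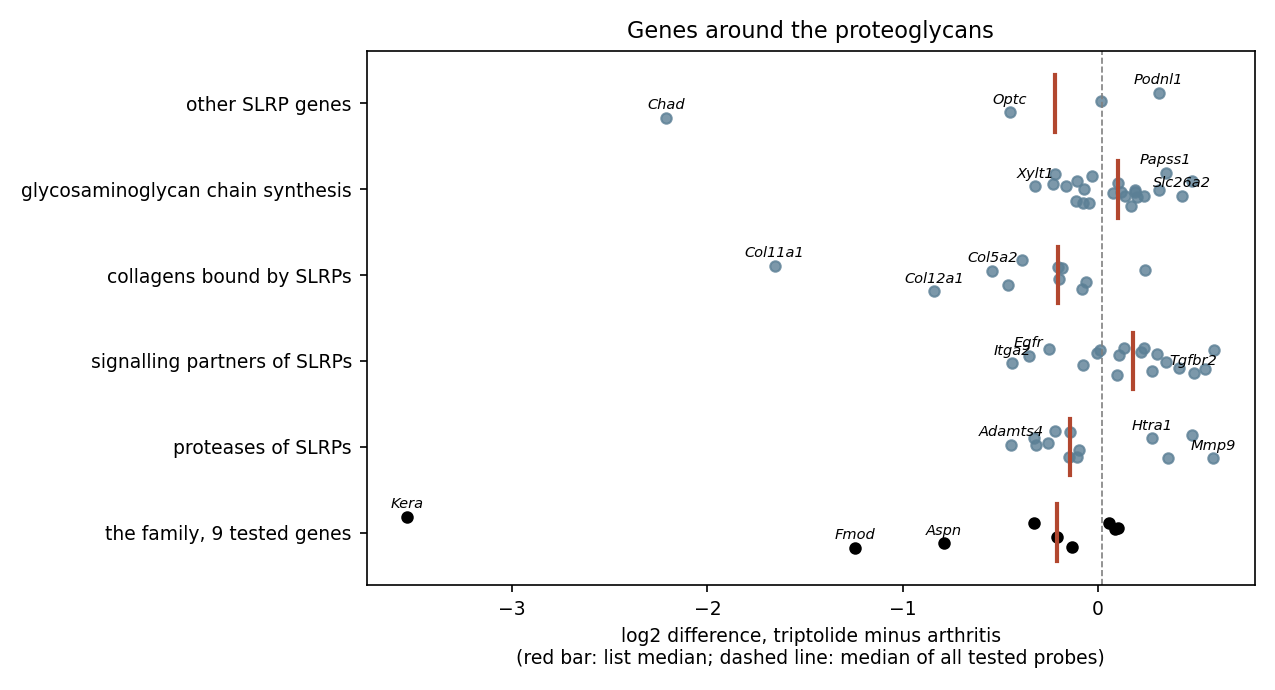
Log2 difference, triptolide minus arthritis, of each tested gene (1 point, brightest probe) in the 5 lists of related genes and in the family, with list medians as red bars and the median of all tested probes as a dashed line. The collagen points lie below 0 except for 1 gene, the chain synthesis genes lie on both sides of 0, and Kera, whose value uses signals below background, is the lowest point.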

How the data were processed

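The 6 scanner files hold spot intensity, deposited by the authors as background-subtracted and spatially detrended values with no normalization between arrays. Per the file headers, the software was Agilent Feature Extraction 10.7.3.1, and the submitters' processing notes name version 9.1. Each array's intensities, without controls, were divided by their 75th percentile and put on a log2 scale. Outlier-flagged spots were then left out, and a mean was taken over spots of a probe. The comparison used limma (3.58.1, under R 4.3.3) over probes well above background on at least 3 arrays, with Benjamini-Hochberg adjustment over all of them. The code was checked on simulated data.

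The authors also deposited a log2 table of 167 rows, which holds 0 family probes, so the alternative that would use it was not run.

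Names came from the RefSeq table (18028 probes by accession, 3169 by symbol and 402 by synonym). The brightest probe stood for a gene. All family members are named, and from each of 5 related lists the 3 tested genes with the smallest unadjusted p. The 6 genes nearest to Aspn are named too. Thbs4, Tnmd, Fibin, Comp, Col1a1, Igf1r, Tgfb1, Tlr2, Tlr4 and the undetected markers were named after their values were seen. Members and lists were chosen with earlier results of these data known, so no p over a list is given. Alternatives covered scaling, background correction, the filter on dim probes, slide, replicate block, array weights, arrays left out, a muscle covariate and the probe per gene.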

Additional observations from a re-analysis of the deposited data

How the results depend on the processing

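Aspn was below 0 under all 19 alternatives, at -0.87 to -0.66 with 1 array left out and -0.87 to -0.69 otherwise, with an unadjusted p under 0.05 in 17. The exceptions were slide as a block and within slide 1. Both gave the same estimate, -0.69. For a gene with 1 probe, such as Aspn, the filters on dim probes, the replicate block and the mean of all probes cannot change the estimate. Those settings are not separate support. Bgn, Lum, Fmod and Kera also kept their sign, Kera in 18 because it drops out when all 6 arrays must be well above background. With normexp the fitted value of Kera was -1.43. Reversals fell on members near 0, and their cause was not tested. Normexp gave 0.0014 for Dcn, -0.029 for Omd and -0.0057 for Prelp, and normexp with quantile normalization 0.065, -0.016 and -0.015. Slide as a block and within slide 1 both gave -0.24 for Ogn, -0.44 for Omd and -0.35 for Prelp, array weights -0.17, -0.14 and -0.083, and leaving out both second arrays -0.35, -0.29 and -0.27. With 1 array left out Dcn ranged from -0.26 to 0.083, Ogn from -0.15 to 0.28, Omd from -0.41 to 0.35 and Prelp from -0.18 to 0.26.

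No family member was called after adjustment under any setting. Over all probes 0 were called except 1 with array weights and 24 with both second arrays left out. Probes at an unadjusted p under 0.05 numbered 833 (317 lower), 616 to 1656 with 1 array left out, 4343 with array weights, 2879 with both second arrays left out, 1756 with no filter on dim probes, 1473 with the muscle covariate, 1295 within slide 1 and 1251 with normexp and quantile normalization. Of the 833, 38.1% were lower, against 48.6% with median scaling, 51.3% with the muscle covariate, 52.6% with array weights, 54.4% without arthritis 2 and 56.5% with both second arrays left out. Same-numbered replicates did not deviate together (correlations of -0.16, -0.13 and 8.3e-04), so they were not taken as pairs. With the replicate block the count was 1064, Aspn stayed at -0.79 and no call changed. With 1 array left out the family median was -0.40 to -0.077, and without Kera -0.31 to 0.0033. With both second arrays left out the family median, Kera included, was -0.58. There chain synthesis genes were at -0.12, collagens at -0.59, signalling partners at -0.023 and proteases at -0.48. Collagens were at -0.61 in both slide settings, -0.52 with array weights, and -0.48 to -0.14 with 1 array left out. With 1 array left out chain synthesis genes ranged from -0.11 to 0.19, signalling partners from 0.098 to 0.28, proteases from -0.35 to 0.0083 and the other genes of the wider group from -0.38 to -0.043.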
